A study of Mus musculus with 4 samples.

Results

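The Tmem132 family was examined in single nuclei from mouse embryonic medial cortex (E16.5). Its members were taken by gene name, *Tmem132a*, *Tmem132b*, *Tmem132c*, *Tmem132d* and *Tmem132e*, which are 5 of the 56884 genes in the deposited gene table. The family was selected on one measured value, the level of *Tmem132c* over all retained nuclei, which was higher in the Dnmt1 KO libraries than in the controls. That difference is therefore given as a description without a test, and tests are given only for the paralogues and for differences between cell classes.

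The knockout group (Dnmt1 KO) had the genotype *Sst-Cre/tdTomato/Dnmt1 loxP2* and the control group *Sst-Cre/tdTomato*, with 2 libraries each, all from embryos of this age on a C57BL/6J background. Every animal thus carried *Sst-Cre* and the tdTomato reporter, and only the knockout animals carried loxP-flanked alleles of *Dnmt1*, the gene of DNA methyltransferase 1, for which the labels name a strain of mixed B6 and 129S origin as source. Cre was driven by the somatostatin (*Sst*) gene, so that the deletion is directed to postmitotic interneurons of the *Sst* lineage and not to the whole cortex. The gene table holds no entry for Cre or tdTomato, and recombined nuclei were not identified. The labels place control replicate 2 in batch 2 and the other libraries in batch 1.

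TMEM132 proteins are single-pass membrane proteins with a large extracellular part built of immunoglobulin-like domains and a short cytoplasmic tail, and they have been linked to cell adhesion and to the actin cytoskeleton through the WAVE regulatory complex. TMEM132A binds the chaperone BiP and the Wnt carrier WLS. *TMEM132D* has been associated with anxiety in human genetics, and *TMEM132E* with hearing. The medial cortical wall holds, beside neocortex, the hippocampal anlage and the cortical hem, a Wnt-secreting signalling centre at the border with the choroid plexus.

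*Tmem132b*, *Tmem132c* and *Tmem132d* lie on one chromosome in mouse. On GRCm39, *Tmem132b* spans chr5:125608838-125869647 on the plus strand, *Tmem132c* chr5:127318850-127642857 on the plus strand and *Tmem132d* chr5:127858688-128510162 on the minus strand, 215.8 kb beyond the end of *Tmem132c*. *Tmem132a* lies at chr19:10835185-10847367 on the minus strand and *Tmem132e* at chr11:82278268-82338461 on the plus strand. The spans range from 12.2 kb for *Tmem132a* to 651 kb for *Tmem132d*. A long noncoding RNA, *Tmem132cos*, is annotated on the opposite strand within *Tmem132c* (chr5:127331083-127358727), and since the use of strand in counting was not stated, reads of this pair may be shared.

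DNMT1 acts on CpG dinucleotides, and the upstream sequences of *Tmem132c* and *Tmem132b* are shown because these neighbours differed in CpG number. The 250 bases before the transcription start were read from RefSeq (GRCm38.p6), at chr5:127241576-127241825 and chr5:125532168-125532417, both on the plus strand, with each CG in capitals.
Tmem132c: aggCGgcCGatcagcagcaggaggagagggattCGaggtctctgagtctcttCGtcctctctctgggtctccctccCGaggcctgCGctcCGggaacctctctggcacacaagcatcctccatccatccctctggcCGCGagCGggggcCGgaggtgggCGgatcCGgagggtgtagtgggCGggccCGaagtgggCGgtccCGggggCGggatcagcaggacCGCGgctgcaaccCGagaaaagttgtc
Tmem132b: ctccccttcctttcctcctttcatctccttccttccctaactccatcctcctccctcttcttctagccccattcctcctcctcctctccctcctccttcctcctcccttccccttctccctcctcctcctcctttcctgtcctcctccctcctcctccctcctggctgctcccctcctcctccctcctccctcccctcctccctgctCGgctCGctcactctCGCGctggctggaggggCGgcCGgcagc
The sequence CG occurred 21 times before *Tmem132c*, 6 times before *Tmem132b* and 28 times in the same window of *Tmem132e*. Of 32851 upstream windows of this length, 16.4% held at least as many as *Tmem132c*, 50.4% as many as *Tmem132b* and 7.61% as many as *Tmem132e*, with a median of 6 over all windows. No DNA methylation was measured here.

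The libraries held 96455278 and 201141704 transcripts (unique molecular identifiers) in knockout replicates 1 and 2, with 153460857 and 182113821 for the controls in the same order. Barcodes with 1500 to 60000 transcripts were retained, which left 5640, 12064, 7047 and 4905 nuclei in the same order. Median depth was between 12274 and 12401 transcripts per nucleus in the batch 1 libraries and 21140 in control replicate 2. Barcodes above the upper limit held 1.35% and 4.37% of the transcripts of the knockout libraries and 19.2% and 29.4% of those of the controls. Nuclei were assigned to 17 classes by marker genes that exclude the family, and 21410 of 29656 nuclei received a class. Levels are given in CPM, a gene's transcripts scaled to the total of the same class and library. *Dnmt1* itself was at 76.1 and 46.1 CPM in the *Sst*+/*Gad2*+ nuclei of knockout replicates 1 and 2 and at 81.2 and 66.5 CPM in those of the controls, so the groups overlapped. The files do not show which exons were counted, and this level does not check the deletion.

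Over all retained nuclei, *Tmem132c* was at 165.8 and 144.6 CPM in knockout replicates 1 and 2 and at 64.3 and 56.4 CPM in control replicates 1 and 2. Both knockout libraries were above both controls, with means of 155 ± 15.0 and 60.3 ± 5.53 CPM (SD, n = 2). The log2 fold change was 1.34, and 1.28 against control replicate 1 alone, the control of the same batch. Such an order of the libraries, both knockout above both controls, was seen for 19.3% of the 21516 genes tested, and since it is the value that chose the family nothing is read from it. In bulk sums of this kind, more cells of a type and more RNA per cell cannot be told apart, so the levels were followed into the cell classes.

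The level of *Tmem132c* was highest in classes of the dorsomedial wall. Among the 12 classes with at least 20 nuclei in every library, it was highest in the cortical hem, at 1504 and 941 CPM in knockout replicates 1 and 2 and at 945 and 571 CPM in the controls. It was next highest in the hippocampal granule lineage, at 568, 729, 532 and 341 CPM in the same order of libraries. These neighbours in the order overlapped in range, although the hem was higher in each of the 4 libraries. The lowest hippocampal value lay above the highest value of the next class, the interneurons of the medial ganglionic eminence (MGE), at 152.7, 177.5, 131.7 and 109.8 CPM.

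Below the MGE interneurons, the order ran over newborn excitatory neurons, interneurons of the caudal ganglionic eminence (CGE), mural cells, radial glia, Cajal-Retzius cells, intermediate progenitors, deep-layer neurons and endothelial cells to upper-layer neurons, and each neighbouring pair overlapped in range. Upper-layer neurons were lowest, between 2.23 and 3.55 CPM. Deep-layer neurons held 11.3 to 32.1 CPM. Classes with few nuclei in some library were summed over libraries. There, meningeal nuclei held 887 CPM (95% Poisson interval 857 to 917) and choroid plexus nuclei 400 CPM (372 to 429), intervals that cover counting error only. These values rest on knockout replicate 2, which held 255 of the 261 meningeal and 131 of the 134 choroid plexus nuclei. Microglia gave 1 transcript of *Tmem132c* in 82 nuclei.

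**Figure D1:**
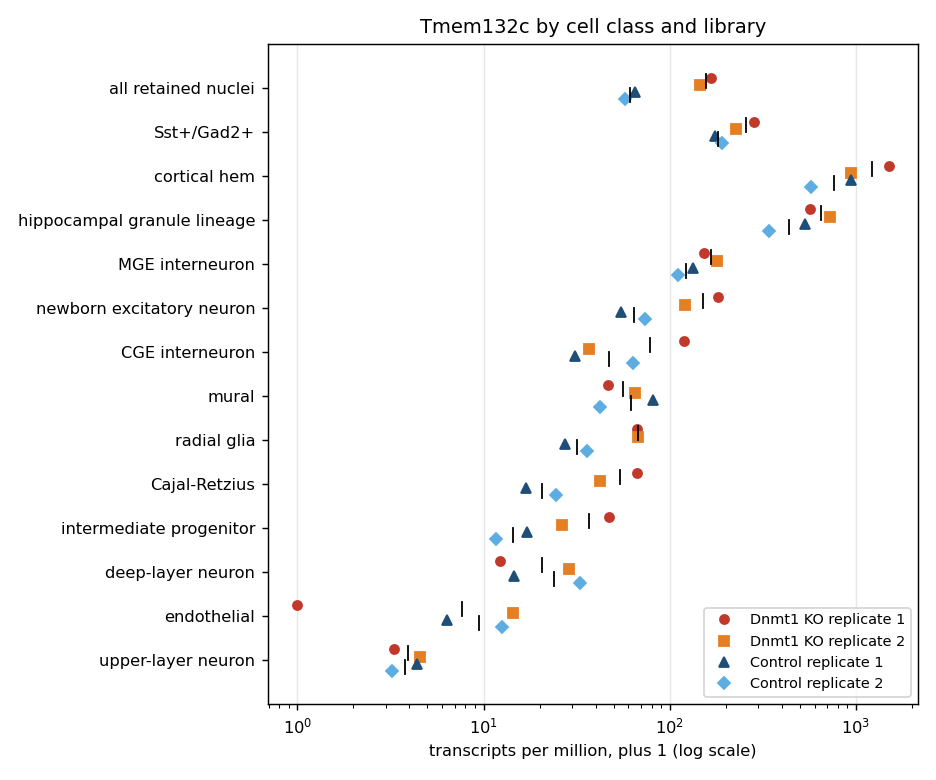
Level of *Tmem132c* (CPM plus 1, log scale) in all retained nuclei, *Sst*+/*Gad2*+ nuclei and the 12 ordered classes, with 1 point per library and short black lines at the mean of each genotype (n = 2). The points run from 571 to 1504 CPM in the cortical hem down to 2.23 to 3.55 CPM in upper-layer neurons, and among the 6 classes tested for genotype the points of the groups separate in radial glia, intermediate progenitors, newborn excitatory neurons and MGE interneurons and overlap in both cortical-layer classes.

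The share of nuclei with a *Tmem132c* transcript was 56.8% and 61.9% in hippocampal granule nuclei of knockout replicates 1 and 2 and 42.5% and 51.6% in those of the controls. After thinning every nucleus to 1500 transcripts the shares were 33.6%, 38.2%, 24.8% and 32.3%. In endothelial nuclei, a non-neural reference of similar depth (medians of 11366 to 22959 against 10797 to 20922 transcripts), 0% to 1.96% of the thinned nuclei held a transcript. That gate held 39, 239, 84 and 51 nuclei in the same order of libraries, few enough that 1 nucleus can set the upper end of this range. In upper-layer neurons the thinned share was 0.424% to 0.671%, within the range of the endothelial nuclei, and is read as background. Radial glia had thinned shares of 7.65% and 5.202% in the knockout and 3.02% and 4.36% in the control libraries, all above the endothelial range. Intermediate progenitors had 4.10% and 0.833% against 2.21% and 0.461%, of which the second replicate of each genotype lay within the endothelial range, and *Sst*+/*Gad2*+ nuclei had 12.5% and 15.4% against 20% and 11.1%. In both the genotypes overlapped in this share.

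The 4 gates of the dorsomedial wall and its coverings, the hippocampal granule lineage, cortical hem, choroid plexus and meninges, differed in size between the libraries. They made up 14.9% of the nuclei in knockout replicate 1, 11.7% in knockout replicate 2, 5.56% in control replicate 1 and 4.42% in control replicate 2. The same gates held 59.9% and 61.1% of all *Tmem132c* transcripts in the knockout libraries and 49.7% and 33.6% in the controls. The hippocampal gate alone made up 13.3% and 7.27% of the knockout nuclei and 4.81% and 3.16% of the control nuclei. In the nuclei outside these gates, *Tmem132c* stood at 78.0 and 63.7 CPM in the knockout libraries and at 34.1 and 39.2 CPM in the controls. The difference between the genotypes was thus smaller outside these gates than over all nuclei but its direction was the same in every pairing of libraries. The share of all genes with that order was not counted outside these gates. Over all nuclei it was 19.3%. These nuclei are also part of the sum that chose the family, and nothing is read from the order.

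The difference of the means over all nuclei, 94.8 CPM, was split into a part from the division of transcripts among classes and a part from the level within each class, each weighted by the mean of both genotypes. The class shares accounted for 52.8 CPM (55.7%) and the levels within classes for 42.0 CPM. The hippocampal granule lineage contributed most, 34.2 CPM by its share and 11.96 CPM by its level. The meningeal gate added 9.44 CPM by its share, choroid plexus 4.97 CPM by its share against -2.75 CPM by its level, and the cortical hem 3.81 and 6.95 CPM. The meningeal and choroid plexus parts rest on knockout replicate 2, which held 255 of the 261 and 131 of the 134 nuclei. The control level of choroid plexus is that of 1 nucleus in control replicate 1, as control replicate 2 held 0. Newborn excitatory neurons contributed 10.5 CPM by level and 1.01 CPM by share, and ungated nuclei 9.88 and 2.03 CPM. The size of the split depends on the classes used, since over 32 Leiden clusters (made without the family's genes) the share part was 82.6%. Whether the classes differed in number between the genotypes or between dissections was not tested.

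**Figure D2:**
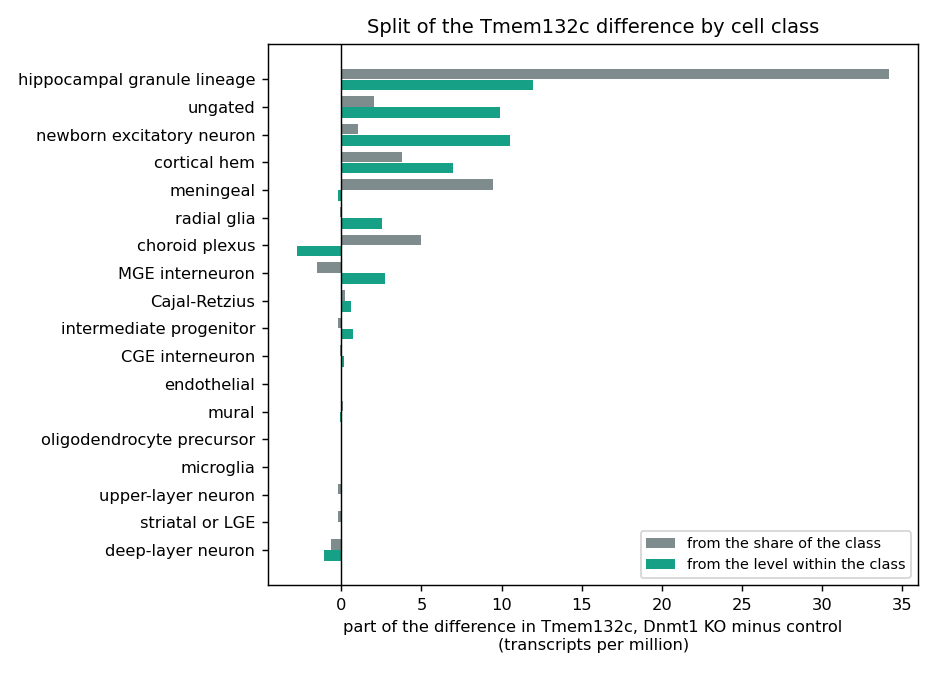
Split of the difference in mean *Tmem132c* level (knockout minus control, CPM) by cell class, with grey bars for the part from the share of the class among all transcripts and green bars for the part from the level within the class. The longest bar is the share of the hippocampal granule lineage, 34.2 CPM, while the bars of newborn excitatory neurons (10.5 CPM) and radial glia (2.56 CPM) come from the level within the class.

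Within classes, the levels of *Tmem132c* are parts of the sum that chose the family, and they are given as a description. The genotypes separated in several neural classes. In radial glia, the neural stem cells of the cortex, *Tmem132c* was at 65.7 and 66.9 CPM in the knockout and at 26.5 and 35.0 CPM in the control libraries (log2 fold change 1.15, SE 0.16). In intermediate progenitors, their dividing daughters, the levels were 46.5, 25.4, 16.2 and 10.7 CPM in the same order, with a log2 fold change of 1.497 (SE 0.37), and 0.86 without the upper limit on transcripts. Newborn excitatory neurons held 181.0, 119.8, 54.1 and 72.4 CPM, with a log2 fold change of 1.29 (SE 0.24). In each of these classes both knockout libraries lay above both controls, and nothing is read from this order. It was shown by 13.6%, 12.7% and 13.6% of the genes tested in radial glia, intermediate progenitors and newborn neurons.

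The *Sst*+/*Gad2*+ nuclei, which have at least 1 transcript of each gene and include the cells to which Cre is directed, held 283.3 and 227.5 CPM in knockout replicates 1 and 2 and 173.3 and 189.3 CPM in the controls. These sums rest on 16, 136, 40 and 27 nuclei. In knockout replicate 2, which gave the most nuclei, the hem markers summed to 81.9 CPM and the choroid plexus markers to 67.5 CPM, while the other libraries in the same order held 4.23, 20.6 and 15.9 CPM of the hem markers and 4.23, 0 and 0 CPM of the choroid plexus markers. The 3 hippocampal markers summed to 647 and 895 CPM in the knockout and 825 and 1260 CPM in the control libraries, and the 6 meningeal markers to at most 6.05 CPM. The part of these markers' cells in the result was not tested. The log2 fold change was 0.54 (SE 0.22), and 0.52 (SE 0.13) in the larger class of MGE interneurons, which include the *Sst* lineage. In both, the knockout libraries lay above the controls, as for 12.3% and 11.9% of the genes tested there, and nothing is read from this order. The value in *Sst*+/*Gad2*+ nuclei became 0.29 when called doublets were left out and 1.44 without the upper limit on transcripts. Upper-layer and deep-layer neurons overlapped between the genotypes, with log2 fold changes of 0.25 (SE 0.40) and -0.19 (SE 0.54), and both turned in sign when single libraries were left out. There, 10.4% and 13.8% of the genes tested had both knockout libraries above both controls.

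Markers of the dorsomedial wall had transcripts inside these gates, and in some gates their sums separated by genotype. The summed level of the 3 hippocampal markers (*Prox1*, *Lef1* and *Zbtb20*) was 3501 and 3627 CPM in newborn neurons of the knockout libraries and 2231 and 3041 CPM in those of the controls. In radial glia it was 4373 and 4934 against 4182 and 4055 CPM, and in intermediate progenitors 3902 and 4002 against 3337 and 3377 CPM. None of the 3 was at 0 in these sums. The sums were not split by gene, but in all nuclei outside the hippocampal gate *Zbtb20* was at 1634 CPM, *Prox1* at 10.3 CPM and *Lef1* at 49.9 CPM. A high sum therefore need not mark cells of the dorsomedial wall. The 5 hem markers summed to 20.6 and 20.6 CPM against 12.6 and 15.8 CPM in radial glia, to 62.2 and 36.4 against 37.6 and 51.0 CPM in newborn neurons, and to 12.3 and 7.19 against 26.6 and 21.4 CPM in intermediate progenitors, with up to 3 of the 5 at 0 in a library. The 5 choroid plexus markers summed to 4.65 and 17.5 against 1.89 and 0.620 CPM in radial glia and the 6 meningeal markers to 1.24 and 6.81 against 2.70 and 1.61 CPM, highest in knockout replicate 2. The choroid plexus sum was 1.23 and 24.1 against 0.386 and 0.254 CPM in intermediate progenitors, with 4 of the 5 markers at 0 in each control. It was 1.17 and 13.0 against 1.28 and 0.158 CPM in newborn neurons. The meningeal sum was 0 and 5.07 against 1.54 and 2.54 CPM in intermediate progenitors and 0.485 and 4.90 against 0.642 and 0.158 CPM in newborn neurons. The part of these markers' cells in the results was not tested. In MGE interneurons the hippocampal sum was lower in the knockout libraries, at 606 and 736 against 919 and 870 CPM. The hem sum there was 16.3 and 13.2 against 16.54 and 22.35 CPM, the libraries numbered 1 being close. The choroid plexus sum in the same gate was 1.63 and 16.9 against 1.34 and 0.294 CPM, with up to 4 of the 5 markers at 0 in a library. The meningeal sum was 0.653 and 4.85 against 0.596 and 0.735 CPM. Sums of a few CPM rest on few transcripts, and nothing is read from the order of libraries in them.

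*Tmem132c* was then read in nuclei with and without a transcript of these markers, meaning *Prox1*, *Lef1* or a hem marker but not *Zbtb20*. This split was chosen after the data were seen. A marker transcript need not mark a cell of the dorsomedial wall. The hem marker *Rspo3* was at 105.9 CPM outside the hem gate. Of deep-layer neurons 69.8% to 81.5% held a marker transcript, and of upper-layer neurons 49.5% to 65.5%. Radial glia without a marker transcript held 35.5 and 29.7 CPM in knockout replicates 1 and 2 and 11.1 and 23.5 CPM in the controls, and those with one held 81.3, 135.4, 44.3 and 49.8 CPM. Newborn neurons without one held 79.3, 78.2, 29.0 and 22.0 CPM, and those with one 240.1, 172.4, 86.3 and 108.9 CPM. The level was thus higher in marker-positive nuclei of every library in both classes, and the knockout libraries lay above the controls on both sides of the split. The share of all genes with that order was not counted within the split, for these or the other classes. In the whole classes it was 13.6% in radial glia and newborn neurons and 12.7% in intermediate progenitors, and nothing is read from the order here. Intermediate progenitors with a marker transcript held 81.1, 86.9, 23.4 and 14.4 CPM, the knockout libraries above the controls. In intermediate progenitors without a marker transcript the genotypes overlapped, at 18.0, 4.53, 11.8 and 6.77 CPM, and the log2 fold change was 0.30, against 0.94 in radial glia and 1.66 in newborn neurons without one. MGE interneurons without one held 170.3, 179.2, 133.3 and 120.8 CPM, and those with one 82.0, 170.7, 124.9 and 81.9 CPM. There the marker-positive nuclei were lower in every library and the genotypes overlapped among them.

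**Figure D3:**
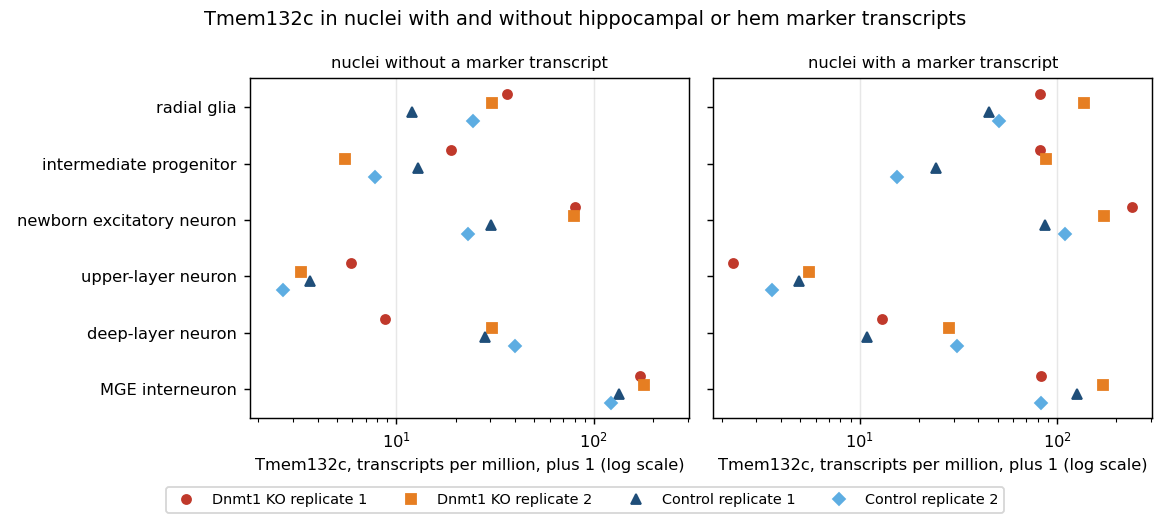
Level of *Tmem132c* (CPM plus 1, log scale) in nuclei without (left) and with (right) a transcript of *Prox1*, *Lef1* or a cortical hem marker, in 6 classes, with 1 point per library. Radial glia move from between 11.1 and 35.5 CPM on the left to between 44.3 and 135.4 CPM on the right, and newborn neurons stay separated by genotype on both sides.

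Among the ordered classes the paralogues were highest in other classes than *Tmem132c*, each read within its own gene. *Tmem132b* was highest in radial glia, at 1100 and 973 CPM in knockout replicates 1 and 2 and at 1038 and 1233 CPM in the controls, and 93.0% to 98.1% of radial glia in each library held a transcript. Intermediate progenitors followed at 628 to 717 CPM, MGE interneurons at 344 to 438 CPM and hippocampal granule nuclei at 193 to 321 CPM, and none of the first 3 classes overlapped the next in range. Newborn neurons held 33.8 to 52.9 CPM and upper-layer neurons 19.4 to 34.3 CPM.

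*Tmem132d* was highest among the ordered classes in deep-layer neurons, at 72.5, 89.3, 120.3 and 117.8 CPM, above the range of the next class, MGE interneurons, at 21.2 to 30.7 CPM. In the 62 oligodendrocyte precursor nuclei, too few for the order, its level summed over libraries was 891 CPM (95% Poisson interval 840 to 945). In the 3 libraries with more than 1 such nucleus it was 682, 1263 and 841 CPM. Choroid plexus nuclei summed to 188 CPM of *Tmem132d* (169 to 208), with 131 of the 134 nuclei in knockout replicate 2. *Tmem132e* was highest among the ordered classes in CGE interneurons, at 17.3, 12.4, 13.4 and 25.8 CPM. It did not exceed 8.43 CPM in any library of the other ordered classes. In the oligodendrocyte precursor nuclei *Tmem132e* summed over libraries to 17.4 CPM (95% Poisson interval 10.9 to 26.4), within the range of the CGE interneurons. *Tmem132a* varied least, from a mean of 11.9 CPM in endothelial nuclei to 37.2 CPM in deep-layer neurons, and every neighbouring pair of classes overlapped.

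**Figure D4:**
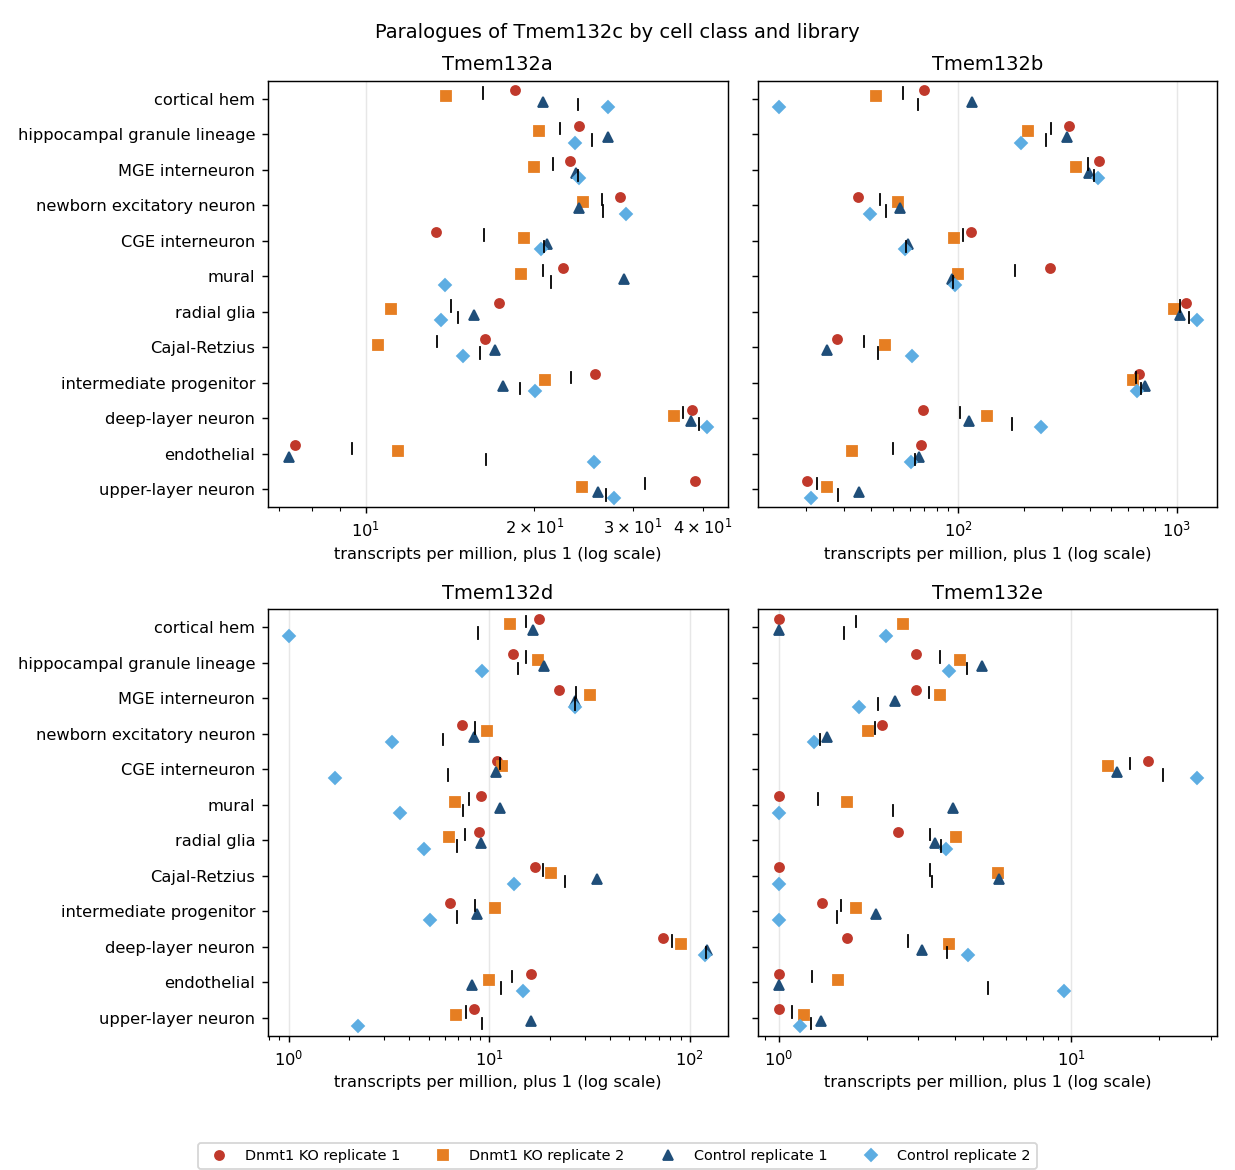
Levels of *Tmem132a*, *Tmem132b*, *Tmem132d* and *Tmem132e* (CPM plus 1, log scale, with a scale of its own in each panel) in the 12 ordered classes, in the order of *Tmem132c*, with 1 point per library and black lines at the mean of each genotype. *Tmem132b* peaks in radial glia (973 to 1233 CPM), *Tmem132d* in deep-layer neurons (72.5 to 120.3 CPM) and *Tmem132e* in CGE interneurons (12.4 to 25.8 CPM), and none of them peaks in the hem or hippocampal classes.

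In all, 6 contrasts between classes were tested for all members, with the library as a block and adjustment over 14839 genes. From upper-layer to deep-layer neurons all 5 members rose, where 29.7% of all genes passed the test. The log2 difference, upper minus deep, was -4.17 for *Tmem132d* (SE 0.34, adjusted p = 7.4e-13), -3.42 for *Tmem132e* (adjusted p = 3.6e-05), -2.98 for *Tmem132c* (adjusted p = 2.8e-07), -2.63 for *Tmem132b* (adjusted p = 1.3e-07) and -0.60 for *Tmem132a* (adjusted p = 0.0011). All these calls kept their side of the threshold under every alternative run. *Tmem132e*, however, had only 0, 3, 4 and 3 transcripts in upper-layer neurons of knockout replicates 1 and 2 and control replicates 1 and 2. The genotype test of these neurons left it out for low counts, while the class filter ran over all classes together. Its value sets deep-layer neurons against a count near the floor, and its adjusted p is not read as support.

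Along the excitatory lineage the members parted. From intermediate progenitors to newborn neurons *Tmem132b* fell, with a log2 difference, progenitors minus newborn, of 3.61 (SE 0.36, adjusted p = 1.1e-10), while *Tmem132c* and *Tmem132a* rose, with -2.42 (SE 0.37, adjusted p = 9.7e-07) and -0.66 (SE 0.17, adjusted p = 0.0013). That made 3 of 5 members, beside 44.7% of all genes. The call for *Tmem132c* there was lost with classes taken from Leiden clusters (-0.78, adjusted p = 0.060). From newborn to upper-layer neurons only *Tmem132c* passed the test, 4.91 higher in newborn neurons (SE 0.43, adjusted p = 3.4e-11), beside 20.7% of all genes.

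Between radial glia and intermediate progenitors, 3 members passed the test, beside 38.4% of all genes. *Tmem132c* was 1.00 higher in radial glia (SE 0.37, adjusted p = 0.029) and *Tmem132e* 2.16 higher (SE 0.84, adjusted p = 0.038), and *Tmem132a* was 0.59 lower, with a log2 difference of -0.59 (SE 0.18, adjusted p = 0.0075). The first 2 calls did not hold when single libraries were left out, and that of *Tmem132a* was lost without knockout replicate 2 (-0.47, adjusted p = 0.12). *Tmem132c* gave 0.85 (adjusted p = 0.19) without knockout replicate 2 and 0.83 (adjusted p = 0.12) without control replicate 2, and -0.66 (adjusted p = 0.13) with Leiden clusters. *Tmem132e* gave adjusted p between 0.060 and 0.11 without any one of the 4 libraries. In intermediate progenitors *Tmem132e* had only 1, 2, 3 and 0 transcripts in knockout replicates 1 and 2 and control replicates 1 and 2. Its value thus sets radial glia against a count near the floor, and nothing is read from it.

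The interneuron classes differed in 4 of 5 members, beside 9.17% of all genes. *Tmem132b*, *Tmem132d* and *Tmem132c* were higher in MGE than in CGE interneurons, with log2 differences of 2.42 (SE 0.36, adjusted p = 5.2e-06), 1.83 (SE 0.44, adjusted p = 0.0040) and 1.504 (SE 0.37, adjusted p = 0.0050). *Tmem132e* was lower, with -3.12 (SE 0.50, adjusted p = 1.8e-05). Without knockout replicate 2 the adjusted p rose to 0.19 for *Tmem132c* and 0.056 for *Tmem132d*, and without control replicate 1 to 0.11 for *Tmem132c*. Against upper-layer neurons, MGE interneurons were higher in 4 of 5 members, beside 27.4% of all genes, with 5.52 for *Tmem132c*, 4.03 for *Tmem132b*, 2.89 for *Tmem132e* and 2.07 for *Tmem132d* (adjusted p between 2.0e-13 and 0.0022). The call for *Tmem132e* was lost without knockout replicate 2 (2.49, adjusted p = 0.086). That call too sets a class against the few *Tmem132e* transcripts of upper-layer neurons, and nothing is read from it.

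The paralogues were then tested for a genotype difference in 8 populations (all retained nuclei, *Sst*+/*Gad2*+ nuclei and 6 classes). They passed the filter on low counts in 29 of the population and gene pairs, *Tmem132e* being left out in *Sst*+/*Gad2*+ nuclei, intermediate progenitors and upper-layer neurons. None of the 29 passed edgeR's test at an adjusted p under 0.05, 2 had an unadjusted p under 0.05, and 0 passed with DESeq2, which gave no adjusted p for *Tmem132e* in newborn neurons. In deep-layer neurons, however, 2 passed edgeR's test with no low-count filter (*Tmem132b*, adjusted p = 1.1e-05, and *Tmem132d*, adjusted p = 0.018). That setting called 348 of the 30380 genes tested in these neurons. With the filter, edgeR's test called 0% of all genes in each of the 8 populations. There the unadjusted p lay under 0.05 for between 213 and 1612 genes, and DESeq2 made between 0 and 199 calls. With 2 libraries per genotype, a p that misses the threshold does not show that the paralogues were equal.

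Over all nuclei, *Tmem132b* was at 248, 174, 218 and 242 CPM in the order knockout replicates 1 and 2 and control replicates 1 and 2, and the groups overlapped (log2 fold change -0.15, SE 0.19, adjusted p = 0.83). *Tmem132d* was at 26.5 and 34.9 against 49.0 and 36.7 CPM, both knockout libraries lying below both controls as for 20.7% of all genes (-0.49, SE 0.21, adjusted p = 0.65). *Tmem132a* (-0.14, SE 0.14, adjusted p = 0.78) and *Tmem132e* (-0.01, SE 0.45, adjusted p = 0.99) overlapped between the genotypes. The sign of *Tmem132a*, *Tmem132b* and *Tmem132e* in this sum turned under at least 1 alternative, *Tmem132e* reaching 0.46 without knockout replicate 1.

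In radial glia and intermediate progenitors, where its own level was highest, *Tmem132b* had log2 fold changes of -0.09 (SE 0.13, adjusted p = 0.91) and -0.02 (SE 0.14, adjusted p = 0.99), with the genotypes overlapping in both. Both knockout libraries lay below both controls for 22.9% of the genes tested in radial glia, 25.1% in intermediate progenitors, 24.1% in newborn neurons, 20.9% in upper-layer neurons, 26.5% in MGE interneurons and 21.2% in *Sst*+/*Gad2*+ nuclei. In MGE interneurons *Tmem132b* gave -0.02 (SE 0.14, adjusted p = 0.99). CGE interneurons were not tested for genotype. Their knockout and control means were 104 and 56.9 CPM for *Tmem132b* and 10.3 and 5.25 CPM for *Tmem132d*. They were 15.3 and 19.8 CPM for *Tmem132a* and 14.9 and 19.6 CPM for *Tmem132e*, and knockout replicate 1 held 35 of these nuclei. In deep-layer neurons *Tmem132d* had the smallest unadjusted p of the paralogues, 0.0069 by edgeR's test, with a log2 fold change of -0.52 (SE 0.12, adjusted p = 0.82), and both knockout libraries lay below both controls, as for 24% of the genes tested there. *Tmem132b* gave -0.76 (SE 0.45, adjusted p = 0.82) in the same nuclei, with levels of 67.6 and 134.1 against 111.5 and 237.5 CPM. That value was -0.10 without control replicate 2, the batch 2 library, and -1.33 without knockout replicate 2. *Tmem132e* gave 1.57 (SE 0.48, adjusted p = 0.85) in newborn neurons and 1.04 (SE 0.46, adjusted p = 0.82) in MGE interneurons, both at levels of at most 2.55 CPM, and the value in newborn neurons was 0.47 without the upper limit on transcripts and that in MGE interneurons -0.061 with Leiden clusters. No paralogue passed the test for a difference between progenitors and neurons in the genotype effect, with adjusted p of 1 for each, and neither did any of the 15931 genes tested (0%).

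**Figure D5:**
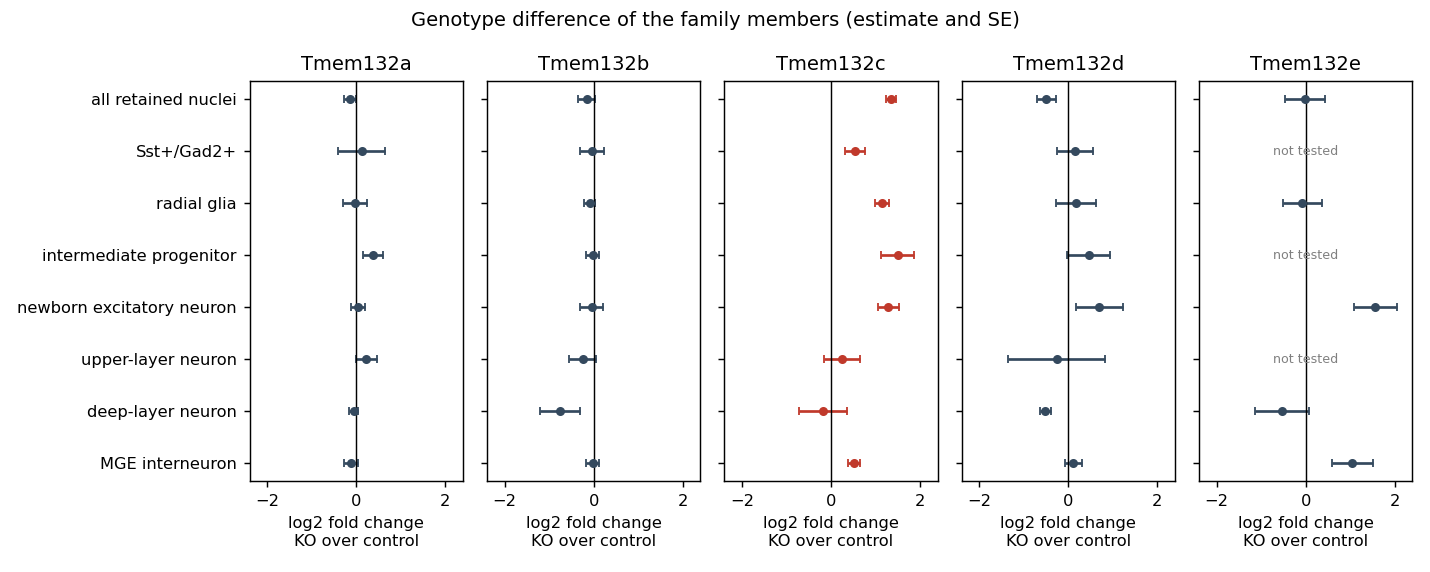
Log2 fold change (knockout over control) with its standard error for each member in 8 populations. The standard errors follow from the test statistic, and those of *Tmem132c* are not read as a test. *Tmem132c* (red, chosen for its value over all nuclei, no test) lies between 1.15 and 1.497 in radial glia, intermediate progenitors and newborn neurons, while the paralogues (dark) run from -0.76 for *Tmem132b* in deep-layer neurons to 1.57 for *Tmem132e* in newborn neurons and none passed the test.

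Levels were compared between members only per length. Per kb of exon, *Tmem132b* held 21.0 to 30.04 CPM over all nuclei and *Tmem132c* 24.6 to 28.2 in the knockout and 9.61 to 10.9 in the control libraries, so *Tmem132c* reached the range of *Tmem132b* in the knockout libraries only. *Tmem132d* held 3.97 to 7.33, *Tmem132a* 4.85 to 6.14 and *Tmem132e* 0.182 to 0.416 CPM per kb of exon. Nuclear RNA contains introns, and per kb of the whole gene *Tmem132a* was highest, at 1.84 to 2.33 CPM, above *Tmem132b* at 0.665 to 0.951 and *Tmem132c* at 0.174 to 0.512. The order of the members therefore turns on the length used.

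By likeness over 36 sums (9 classes in 4 libraries, log2 of CPM plus 1), the genes most like *Tmem132c* among 10303 were *Tmem132cos* (Pearson r = 0.90), *Tmem47* (0.83) and *Wls* (0.82). *Tmem132cos* stood at 1.94 and 2.07 CPM in the knockout and at 0.867 and 0.789 CPM in the control libraries over all nuclei, and it overlaps *Tmem132c*. The genes most like *Tmem132b* were *Pola1* (0.89), which encodes a DNA polymerase subunit, *Tbc1d5* (0.87) and *Ostm1* (0.86). *Tmem132d* was most like *Pde7b* (0.85), *Sgcz* (0.82) and *Slc8a3* (0.81), *Tmem132a* like *Sema7a* (0.83), *Gm31907* (0.83) and *Lrig2* (0.82), and *Tmem132e* like *Shld2* (0.72), *Dse* (0.65) and *Lama1* (0.64). Between members r lay from -0.26 to 0.34, and no member was among the 3 genes most like another. These sums share libraries and classes, and the coefficients are given as a description.

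The other genes of the pathway gave no call, which does not set them apart, since no gene was called in these populations. The 11 partners were 9 genes for subunits of the WAVE regulatory complex, paralogues included, and the TMEM132A partners *Hspa5* and *Wls*. All were tested in every population and 0 passed the adjusted threshold in either direction, beside 0% of all genes in each population. Over all nuclei 7 were higher and 4 lower, with a median log2 fold change of 0.07 beside -0.01 over all genes. *Hspa5*, which encodes BiP, had the smallest unadjusted p (0.0015 by edgeR's test), at 34.8 and 35.4 CPM in the knockout and 23.3 and 22.3 CPM in the control libraries (log2 fold change 0.60, SE 0.09, adjusted p = 0.65). *Wls* was at 28.3 and 37.9 against 25.9 and 17.3 CPM (0.60, SE 0.25, adjusted p = 0.65). The genes for WAVE subunits lay between -0.12 and 0.16.

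Among the 10 protein-coding genes nearest to *Tmem132c*, 5 on each side, were *Tmem132b* and *Tmem132d*. Of the other 8, 7 were tested over all nuclei and 0 passed the adjusted threshold, beside 0% of all genes. Of these, 2 were higher and 5 lower, with a median log2 fold change of -0.20 beside -0.01 over all genes. *Slc15a4*, a lysosomal transporter gene whose start lies 24.4 kb beyond the end of *Tmem132c*, was at 14.6 and 12.5 CPM in the knockout and 16.6 and 16.4 CPM in the control libraries (-0.31, SE 0.12, adjusted p = 0.65). *Glt1d1*, at 66.3 kb, gave -0.20 (SE 0.11, adjusted p = 0.67). *Fzd10*, a Wnt receptor gene, gave 1.18 (SE 0.51, adjusted p = 0.65) at levels of 0.26 CPM or less.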

How the data were processed

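Nuclei were profiled by split-pool barcoding (Parse Evercode) and, per the labels and the methods, processed by the authors in Trailmaker against GRCm39. The deposited matrices hold counts of transcripts (unique molecular identifiers) per gene and barcode, as made by the authors without normalization. Whether introns and strand were used in counting is not given in the sources used here. The submitters' processing notes also name R 4.4.1 and Seurat 5.0.1.9001.

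Barcodes with 1500 to 60000 transcripts were kept. No nucleus exceeded 10% mitochondrial transcripts, and no barcode was shared between libraries. Nuclei were scored on markers of 17 classes (3 to 9 genes each, members excluded, log values scaled per 10000 transcripts) and gated where the best mean score reached 0.3, led the next by 0.2 and rested on at least 2 detected markers. That gave a class to 72.2% of nuclei, while 2250 nuclei lay just above and 2271 just below the lead limit (within 0.1). Called doublets (2.96% to 7.36% per library) were kept. Counts were summed per class and library, nuclei not being replicates. Genotypes and classes (library as block) were tested with edgeR 4.0.16 (quasi-likelihood test, TMM, filterByExpr, Benjamini-Hochberg adjustment over all genes tested, threshold 0.05) in R 4.3.3, with SEs of log2 fold changes, and checked on simulated data. Each SE is the absolute log2 fold change divided by the root of the F statistic of the test. It is thus no separate estimate, and for the genotype difference of *Tmem132c* it is not read as a test. Classes with at least 20 nuclei in every library were ordered, and likeness used classes with at least 50. Clusters for the alternative came from scanpy 1.11.5. Intervals and shares cover counting error only.

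The members were named by the family rule, with *Tmem132cos*, 11 partners and the nearest genes (5 each side) beside them, and these lists and the markers were chosen with earlier results of these data known. Nothing in the labels says more than that replicates are separate samples, the study giving 2 brains per genotype. Alternatives were RLE size factors, DESeq2 1.42.0, no low-count filter, each library left out, a replicate block, a filter on mapped reads, no upper limit on transcripts, doublets left out, a stricter gate (lead 0.5) and Leiden clusters.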

Additional observations from a re-analysis of the deposited data

How the results depend on the processing

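With 2 libraries per genotype, the sign of small differences was not stable. Of the 29 paralogue and population pairs, 7 kept their sign under every alternative and 22 changed it under at least 1. The cause was not tested for any value below.

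The number of paralogues past the threshold of edgeR's test in deep-layer neurons was 0, but 2 with no low-count filter (*Tmem132b*, adjusted p = 1.1e-05, and *Tmem132d*, adjusted p = 0.018). In that setting 348 of 30380 genes passed in these neurons. The log2 fold change of *Tmem132d* there, -0.52, was -0.68 without knockout replicate 2. The mean *Tmem132c* level in the cortical hem, 990 CPM, was 1545 CPM with Leiden clusters and 1451 CPM with the stricter gate. The mean *Tmem132a* level in deep-layer neurons, 37.2 CPM, was 39.3 CPM with the stricter gate. The share part of the *Tmem132c* difference, 55.7%, was 82.6% with Leiden clusters by number, an alternative chosen after seeing the data.

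These log2 values turned in sign. Over all nuclei, with single libraries left out, *Tmem132a* ran from -0.28 to 0.00018, *Tmem132b* from -0.42 to 0.086 and *Tmem132e* from -0.75 to 0.46, and *Tmem132e* was 0.00028 with RLE size factors, 0.0042 with the filter on mapped reads and 0.045 without doublets. *Tmem132b* ran from -0.18 to 0.010 in radial glia, from -0.094 to 0.061 in intermediate progenitors (0.0034 with no upper limit, 0.067 with the stricter gate) and from -0.21 to 0.15 in MGE interneurons (0.15 with the filter on mapped reads). *Tmem132e* in MGE interneurons was -0.061 with Leiden clusters. *Tmem132c* ran from -0.25 to 0.53 in upper-layer neurons (-0.95 with no upper limit, -0.10 without doublets) and from -0.99 to 0.57 in deep-layer neurons. Between classes, *Tmem132c* in radial glia minus intermediate progenitors was -0.66 with Leiden clusters, *Tmem132d* ran from -0.31 to 0.18 there and from -0.44 to 0.49 in newborn minus upper-layer neurons (0.64 with Leiden clusters). In the genotype effect of progenitors minus neurons, *Tmem132d* ran from -0.022 to 0.74 and *Tmem132e* was -1.40 with Leiden clusters.

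With single libraries left out, *Tmem132c* stayed between 1.26 and 1.44 over all nuclei, 0.99 and 1.34 in radial glia, 1.01 and 1.89 in intermediate progenitors and 0.96 and 1.56 in newborn neurons. As both knockout libraries lay above both controls in each, leaving out a library could hardly turn the sign. These ranges are no support for the value that chose the family. Of all genes, 0 passed over all nuclei, but 199 with DESeq2, 70 with no low-count filter and 188 without knockout replicate 1, and in the other populations 0 to 22, 57 to 361 and, over all libraries left out, 0 to 308. Deviations of same-numbered libraries correlated between -0.058 and 0.074, which gave no sign of a pairing by number. With 2 libraries per genotype, and control replicate 2 alone in its batch, this check cannot decide whether one exists. With the replicate block 0 paralogues and 0 of all genes passed in each population.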

Other observations

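Barcodes with fewer than 100 transcripts were read as free RNA. *Tmem132d* was at 188 and 96.3 CPM there in knockout replicates 1 and 2, at 154 CPM in control replicate 1 and at 33.6 CPM in control replicate 2, beside 26.5, 34.9, 49.0 and 36.7 CPM in the nuclei. It was thus higher in free RNA than in nuclei in the 3 libraries of batch 1 and not in that of batch 2. *Tmem132b* was close in both, at 256, 185, 243 and 242 CPM in free RNA beside 248, 174, 218 and 242 CPM in the nuclei, in the same order. *Tmem132c* was at 108, 119, 71.2 and 51.8 CPM in free RNA beside 165.8, 144.6, 64.3 and 56.4 CPM in the nuclei.

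In the same batch 2 library *Tmem132d* was at 1.21 CPM in upper-layer neurons, against 5.87 to 15.2 CPM in the other libraries, and at 0.698 CPM in CGE interneurons, against 9.81 to 10.6 CPM. In the hem it had 0 transcripts there, a count that allows up to 2.01 CPM, against 11.7 to 16.7 CPM. In deep-layer neurons this library, at 117.8 CPM, lay within the range of the others. With 1 library in batch 2, the batch and the library cannot be told apart.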
